A study of Saccharomyces cerevisiae with 10 samples.

Results

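JHD2 overexpression was compared with an empty vector in budding yeast growing on glucose. The comparison covered 6259 features whose deposited status was OK, out of 7041 listed features, and 6223 of them had a mean level of at least 1 FPKM (reads per feature, corrected for its length and for the size of the library) over both groups. Members were taken by that status alone, and the other 36 were below the minimum. The empty vector group (EV) and the overexpression group (OE) were described in the labels as wildtype BY4742 cells of Mat alpha mating type grown in YAD, a synthetic medium with ammonium and glucose. Per the study's strain list, both strains carried a leu2 mutation and a multicopy 2μm LEU2 plasmid. The OE plasmid held JHD2 with a FLAG tag behind the constitutive ADH1 promoter, and its chromosomal JHD2 was left in place. Wildtype and jhd2Δ cultures in YAD, used below as references, came from prototrophic BY4742 strains without a plasmid per the same list. The jhd2Δ strain lacks JHD2. Per the methods, 3 replicate cultures stood behind each group, and RNA spike-ins were added to each cell pellet. The deposited table gave 1 FPKM value per group, so the differences below carry no error and no p-value. The replicate sheet deposited beside it was identical to that of YAR, the medium with ammonium and raffinose, in 7041 of 7041 features, and was read as YAR only.

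Jhd2 is a JmjC-domain demethylase acting on H3K4, a histone H3 lysine that the Set1 methyltransferase complex (COMPASS) methylates over transcribed genes. In glucose, budding yeast ferments and represses much of its respiratory gene set. Haploid yeast of a and alpha mating type each transcribe their own pheromone, receptor and agglutinin genes, and both share the machinery of the pheromone response. Phosphate-limited cells induce high-affinity phosphate transporters and secreted phosphatases through the transcription factor Pho4, which binds CACGTG and, more weakly, CACGTT. The pheromone-response factor Ste12 binds TGAAACA.

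The 2 gene groups that the results turn on carried these motifs upstream of their start codons. In windows of 600 bases before the start codon (RefSeq, S288C assembly R64), CACGTG was found in 15 of 17 phosphate starvation genes and in 7.23% of 5999 protein-coding genes. CACGTT, read on both strands, was in 11 of those 17 and in 18.8% of all genes. TGAAACA, read on both strands, was in 17 of 24 pheromone response genes, 7 of 7 a-specific genes and 3 of 5 alpha-specific genes, against 14.6% of all genes. These matches describe the windows only, and windows of divergent neighbours can overlap. The phosphate list includes CTF19, a kinetochore gene whose CACGTG sites are the same sites counted for its divergent neighbour VTC3. The sites below belong to members with large differences and are written 5′ to 3′ on the strand of the gene, with the motif in capitals.
PHO84, minus strand, chrXIII:26221-26246: ttaatagttcCACGTGgacgtgttat
PHO84, minus strand, chrXIII:26199-26224: ttatttccagCACGTGgggcggaaat
SPL2, minus strand, chrVIII:375232-375257: atgatgtacgCACGTGggcgaaagtt
PHO89, minus strand, chrII:798830-798855: gacaatgcagCACGTGggagacaaat
PHO5, minus strand, chrII:431189-431214: ttggcactcaCACGTGggactagcac
PHO12, plus strand, chrVIII:551806-551831: ttggcgttcaCACGTGggtttaaaaa
PHO11, plus strand, chrI:225167-225192: ttggcgttcaCACGTGggtttaaaaa
AGA1, plus strand, chrXIV:703487-703513: cataattttcTGAAACAatattaaaac
SST2, minus strand, chrXII:1041595-1041621: tattcaatttTGAAACAatgatcccaa
FUS1, plus strand, chrIII:71606-71632: ggtgcgatgaTGAAACAaacatgaaac
STE2, plus strand, chrVI:82373-82399: aagtacatgaTGAAACAcatatgaaga
SAG1, minus strand, chrX:445281-445307: cactgagtggTGAAACAttgaacaact
The PHO11 and PHO12 sites are the same run of letters on chromosomes I and VIII, and reads from this near-identical pair may have been shared between them.

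The plasmid gene itself set the check of the labels. JHD2 (YJR119C, chrX:644304-646490) stood at 24.0 FPKM in the EV group and at 6886 FPKM in the OE group. On the log2(FPKM + 1) scale used for every difference below, OE minus EV was 8.11. In YAR, where each culture has its own value, JHD2 was at 27.6, 35.8 and 28.7 FPKM in the 3 EV cultures and at 2213, 1917 and 1503 FPKM in the 3 OE cultures. Every OE culture thus stood far above every EV culture. The YAR difference was 5.75 ± 0.20 (SE, n = 3 and 3), with an adjusted p of 0.00012 by limma. JHD2 was at 4.85, 4.49 and 5.82 FPKM in the 3 wildtype cultures without a plasmid in YAD, from a table normalised separately.

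LEU2, the selectable marker of both plasmids, was at 16759 FPKM in EV and 12995 FPKM in OE in YAD, a difference of -0.37. It stood at 321, 330 and 322 FPKM in the wildtype cultures without a plasmid. Neighbours of the ADH1 gene showed levels of the same kind. MHF1 (YOL086W-A) was at 1507 FPKM in EV and 1331 FPKM in OE, against 62.7 to 82.5 FPKM in wildtype, and YOL085C was at 524 and 291 FPKM, against 13.9 to 38.1 FPKM. YOL085C overlaps YOL085W-A at chrXV:161579-162014, so the reads of this pair may have been split, and the pair differed by -0.84 and -0.87 between OE and EV. ADH1, the alcohol dehydrogenase gene that lends its promoter to the plasmid, was itself at 19215 FPKM in EV and 15217 FPKM in OE, a difference of -0.34.
Genes beside chromosomal JHD2 differed little. ILM1 was at -0.40, STE24 at -0.25, TDA4 at -0.47 and ATP2 at 0.14, and the neighbours of LEU2, NFS1 and DCC1, were at -0.30 and 0.05. None of these 6 was past 1.4-fold, and 93.5% of all features were within it.

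Over all 6223 features, 98 were higher in OE past 1.4-fold (1.57%) and 308 were lower (4.95%), while 93.5% stayed within that fold. Only 23 were higher and 36 lower past 2-fold. The median difference was -0.12, so the typical feature was 1.08-fold lower in OE, and 90% of features lay between the 5th percentile of -0.48 and the 95th of 0.24. After centring on that median, 150 were higher and 164 lower. A count of direction therefore depends on this shift of the whole table, and list medians are read against -0.12 below. The EV and OE values correlated across features with a Pearson r of 0.989.
The plot of differences against level shows that few features stood apart from the bulk.

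**Figure D1:**
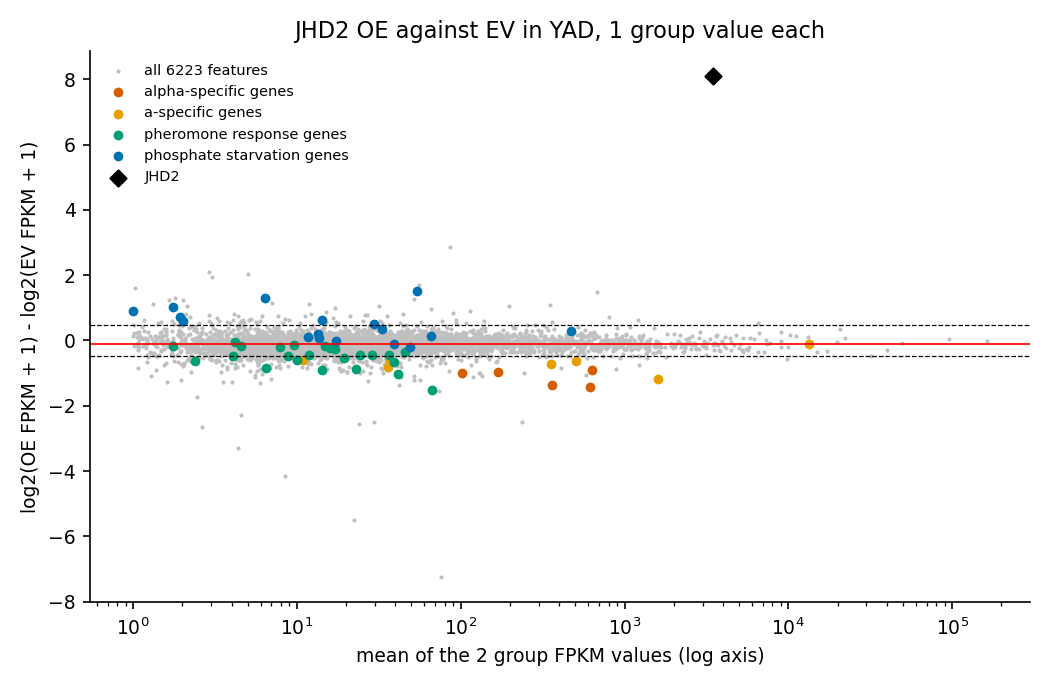
Each point is a feature: x, the mean of both group FPKM values (log axis), y, the OE minus EV difference of log2(FPKM + 1) in YAD. Dashed lines mark 1.4-fold and the red line the median of -0.12. JHD2 stands alone at 8.11, alpha-specific genes lie below the lower dashed line, and 8 of 17 phosphate genes lie above the upper one.

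The median size of these differences was close to that of gaps between single cultures of 1 strain, which is not a like comparison. Each group value rests on 3 cultures per the methods, so it would vary less than a single culture does. The differences also hold the shift of -0.12. The values below therefore do not place the differences at the level of spread between like groups. For features at 10 to 100 FPKM the median absolute difference between OE and EV was 0.147, and the median absolute gap between pairs of wildtype YAD cultures was 0.153. At 100 FPKM or more the values were 0.136 and 0.140, and at 1 to 10 FPKM 0.192 and 0.193. For single features, the gap between the highest and lowest of the 3 wildtype cultures is given below as a yardstick. It comes from single cultures of another strain and from another table, and it is not an error of the EV or OE group.

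Short and poorly annotated features supplied many of the extremes. Of 52 features with a span under 150 bases, 9.62% were higher and 34.6% lower past 1.4-fold, against 1.02% and 3.90% of 5181 features of 600 bases or more. Of 514 features with IDs outside the RefSeq gene table, 3.502% were higher and 17.7% lower, against 1.405% and 3.74% of 5694 protein-coding genes in that table. Features within 20 kb of a chromosome end were higher in 16 of 156 cases (10.3%), against 81 of 6042 (1.34%) elsewhere. Among the 24 largest differences at a mean of 10 FPKM or more, 8 spanned under 300 bases and 7 were outside the RefSeq table. The mitochondrial proline tRNA tP(UGG)Q was listed at 152 FPKM in EV and at 0 in OE, and YMR242W-A at 44.5 FPKM and at 0. For both a listed 0 may be a failed estimate, and no fold is given. YBL039C-A was at 403 FPKM in EV and 70.1 FPKM in OE but near 0 in all 3 wildtype cultures, and its listed locus is that of URA7 (chrII:143989-145728). MIN4, at 25.6 and 85.2 FPKM, was listed at 0 in 2 of 3 wildtype cultures. Such features are named here as values only.

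OPT2, an oligopeptide transporter gene at chrXVI:924304-926937, had the largest increase after JHD2. It was at 20.01 FPKM in EV and 151 FPKM in OE, a difference of 2.86, and the wildtype cultures spanned 0.52 between 13.4 and 19.6 FPKM. In YAR, OPT2 was at 9.08, 10.2 and 8.19 FPKM in EV and at 14.9, 9.91 and 11.97 FPKM in OE. Those cultures overlapped, with a difference of 0.25 ± 0.16 (SE, n = 3 and 3, adjusted p = 0.49 by limma), and the difference between media could not be tested. HPF1, which codes for a cell wall mannoprotein, was at 128 FPKM in EV and 269 FPKM in OE (1.06), and FIT2, a mannoprotein gene of iron uptake, at 43.8 and 87.2 FPKM (0.98). The wildtype cultures of FIT2 spanned 1.17, more than its difference, while those of HPF1 spanned 0.29.

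Mating-type markers did not follow the single label of Mat alpha. In the EV group in YAD the 5 alpha-specific genes summed to 2603 FPKM and the 7 a-specific genes to 17293 FPKM, and no gene of either list was at 0. The OE group gave 1162 and 14601 FPKM. In wildtype cultures labelled Mat alpha the alpha-specific sums were 4298, 5612 and 4744 FPKM and the a-specific sums 54.4, 46.5 and 145 FPKM. In jhd2Δ cultures labelled Mat a the alpha-specific sums were 31.1 to 31.9 FPKM and the a-specific sums 15827 to 18334 FPKM. The study's strain list gives this jhd2Δ strain as Mat alpha, so the label and the list are in conflict. Both EV and OE groups thus carried transcripts of both sets, with alpha-specific sums far above those of Mat a cultures and below those of Mat alpha cultures. The a-specific sums rested mostly on MFA2, at 13908 FPKM in EV and 12883 FPKM in OE, and MFA1, at 2229 and 990 FPKM, stood above the 193 to 238 FPKM of the jhd2Δ cultures. HMRA1, an a-type gene chosen here after its values were seen, was at 75.6 FPKM in EV and 82.6 FPKM in OE, against 0 to 1.35 FPKM in wildtype. MATALPHA1, MATALPHA2, HMLALPHA1 and HMLALPHA2, looked at with it, did not have a status of OK. They were listed at 0 in both groups and also in the wildtype cultures labelled Mat alpha, so they are no guide to mating type here.
The YAR cultures also differed from each other in these genes. MF(ALPHA)1, which encodes the alpha pheromone, was at 5.405, 10.1 and 817 FPKM in EV cultures 1 to 3 and at 25.4, 27.1 and 313 FPKM in OE cultures 1 to 3. STE2, the receptor gene of a cells, was at 369, 225 and 16.7 FPKM in EV and at 157, 206 and 35.2 FPKM in OE. For this pair of genes culture 3 of both groups was high in the alpha marker and low in the a marker, and the other 4 cultures were the reverse, against a label of Mat alpha for all 6. STE3 and AFB1 were likewise highest in culture 3 of both groups, and MF(ALPHA)2 and SAG1 in culture 3 of EV only. MF(ALPHA)2 was at 12.1, 10.8 and 102 FPKM in EV and at 19.0, 31.5 and 19.2 FPKM in OE. OE culture 3 had an alpha-specific sum of 585 FPKM and an a-specific sum of 751 FPKM, against 1572 and 434 FPKM in EV culture 3. The makeup of the YAD groups by culture was not tested, because only the group values are used here. In such bulk samples fewer cells of a type and less RNA per cell cannot be told apart.

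**Figure D2:**
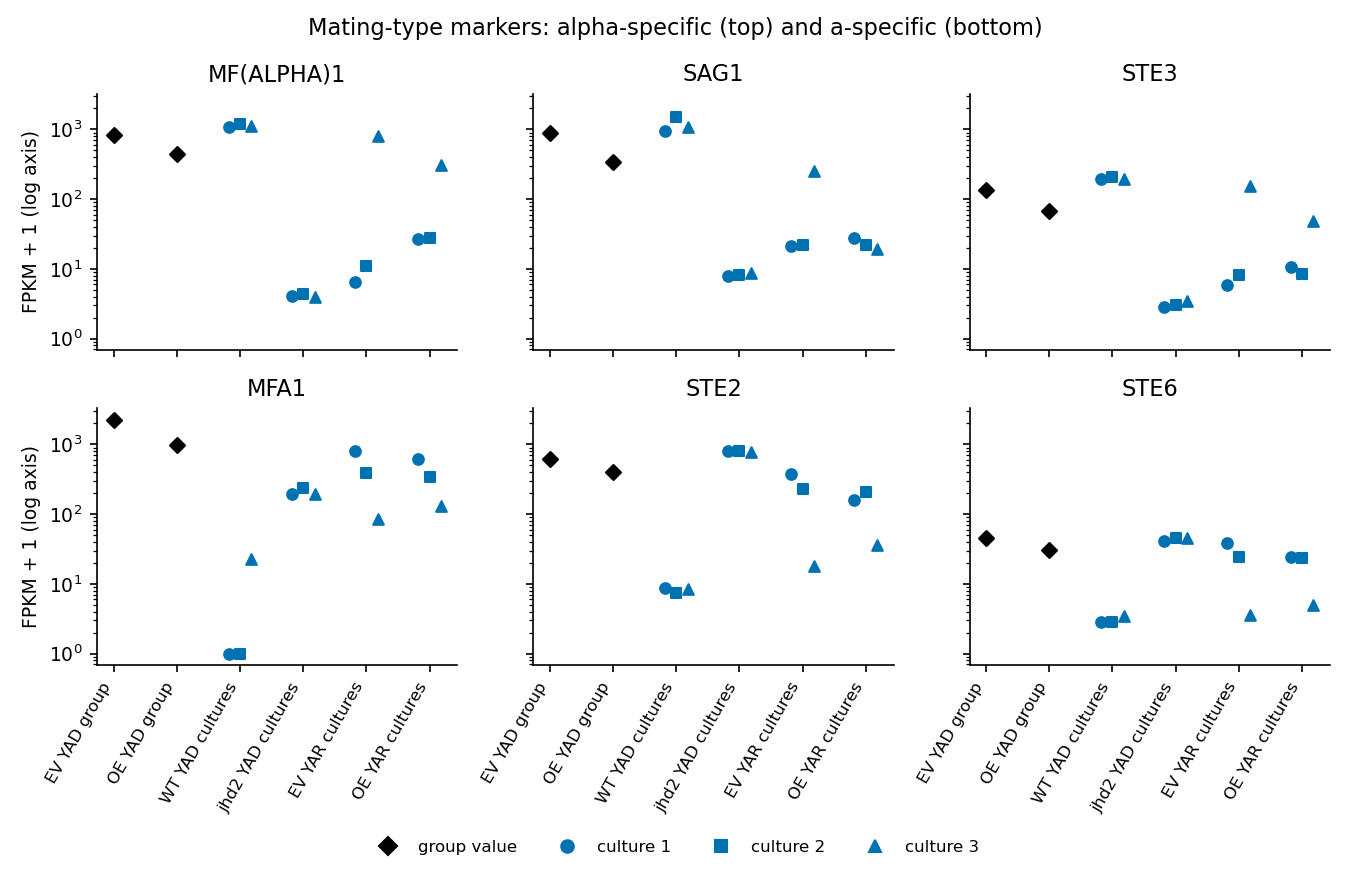
FPKM + 1 (log axis) of 3 alpha-specific genes (top) and 3 a-specific genes (bottom). Black diamonds are YAD group values and blue symbols are cultures 1, 2 and 3. Wildtype cultures are high in the top row and low in the bottom row, jhd2Δ cultures are the reverse, and the EV and OE groups in YAD are present in both.

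Genes of both mating types were lower in OE in YAD. All 5 alpha-specific genes were lower past 1.4-fold, with a median of -0.99, and 6 of 7 a-specific genes were lower, with a median of -0.63, beside 4.95% of all features and the median of -0.12.
Among the alpha-specific genes, SAG1, the alpha-agglutinin gene, was at 900 FPKM in EV and 336 FPKM in OE (-1.42). MF(ALPHA)2, a minor alpha pheromone gene, was at 522 and 203 FPKM (-1.36). MF(ALPHA)1 was at 820 and 440 FPKM (-0.90). STE3, the receptor for a-factor, was at 135 and 67.6 FPKM (-0.99), and AFB1, which codes for an a-factor barrier protein, was at 225 and 115 FPKM (-0.96). The wildtype cultures of these genes spanned 0.13 to 0.67, less than the difference in each case.
Among the a-specific genes, MFA1, an a-factor gene, was at 2229 FPKM in EV and 990 FPKM in OE (-1.17). MFA1 spans 111 bases, and 34.6% of features under 150 bases were lower past the fold. BAR1, the gene of the protease that degrades alpha-factor, was at 46.3 and 25.8 FPKM (-0.82), and AGA2, an a-agglutinin subunit gene, at 441 and 270 FPKM (-0.71). STE2 was at 611 and 395 FPKM (-0.63), STE6, the a-factor exporter gene, at 44.7 and 29.2 FPKM (-0.60), and ASG7 at 13.3 and 8.41 FPKM (-0.60). The exception was MFA2, the other a-factor gene, at 13908 and 12883 FPKM (-0.11). HMRA1 was at 0.13. The wildtype cultures, which are Mat alpha by label and low in these genes, spanned 4.52 for MFA1, 2.00 for AGA2 and 1.71 for MFA2, more than the differences, and 0.24 to 0.34 for the other 4.

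The shared pheromone response genes were lower as well, with 9 of 24 past 1.4-fold, beside 4.95% of all features, none higher, and a median of -0.45. AGA1, the anchor subunit of the a-agglutinin, was at 100 FPKM in EV and 34.1 FPKM in OE (-1.53), the widest difference of the list. SST2, whose product turns off the pheromone-receptor G protein, was at 56.0 and 27.1 FPKM (-1.02), and GPA1, the gene of its alpha subunit, at 30.1 and 16.1 FPKM (-0.86).
FIG2, a mating adhesin gene, differed by -0.91, FUS1, needed for cell fusion, by -0.83, FAR1, the pheromone-dependent cell cycle inhibitor, by -0.65, PRM1 by -0.59 and STE12, the transcription factor of the pathway, by -0.54. PRM6 differed by -0.64. The beta and gamma subunit genes STE4 and STE18, at -0.45 and -0.37, the kinase gene FUS3, at -0.44, and the scaffold gene STE5, at -0.16, did not pass the fold. HO, the mating-type switching endonuclease gene of haploid cells, was noted after its values were seen at 24.7 and 12.6 FPKM (-0.92), and RME1, a haploid repressor of meiosis, at 47.8 and 37.9 FPKM (-0.33). The wildtype cultures of SST2 spanned 0.14, those of GPA1 0.26 and those of FUS1 0.17. AGA1 was at 97.7 to 139 FPKM in the wildtype YAD cultures, labelled Mat alpha. In the jhd2Δ YAD cultures, labelled Mat a, AGA1 was at 14.8 to 17.96 FPKM. FIG2 was at 17.7 to 29.6 and 3.98 to 4.56 FPKM. SST2 differed less, at 38.3 to 42.4 and 25.7 to 27.7 FPKM, and GPA1 overlapped. These references differ in mating-type label and in JHD2, and which of these AGA1 and FIG2 follow was not tested.
After centring on the median, 7 of the 24 pheromone genes, 4 of 7 a-specific and 5 of 5 alpha-specific genes remained lower past the fold. Members of the pheromone and mating-type lists with TGAAACA upstream ran from -1.53 for AGA1 to -0.06 for PRM2. GPA1 (-0.86), FAR1 (-0.65), STE3 (-0.99) and MF(ALPHA)1 (-0.90) had no such match. A link of the motif with the differences was not tested. The part of culture makeup in these differences was not tested either.

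Culture by culture in YAR, the lists went apart. AGA1 was at 26.3, 23.6 and 56.5 FPKM in EV and at 18.5, 13.2 and 12.8 FPKM in OE. SST2 was at 19.2, 13.3 and 25.6 FPKM in EV and at 9.71, 9.70 and 8.14 FPKM in OE. For both genes all OE cultures lay below all EV cultures. The YAR differences were -1.24 ± 0.39 (adjusted p = 0.29) for AGA1 and -1.08 ± 0.28 (adjusted p = 0.29) for SST2 (SE, limma), and -0.73 and -0.75 without culture 3 of either group. For 7 of 23 pheromone genes all OE cultures were below all EV cultures, beside 7.2% of all YAR features, and for 6 they were above, beside 16.6%. No alpha-specific or a-specific gene separated the YAR groups. SAG1 was at 20.1, 21.0 and 251 FPKM in EV and at 26.4, 20.9 and 18.5 FPKM in OE, so its YAR difference of -1.24 became 0.09 without culture 3 of either group. The median of the alpha-specific list was -0.41 in YAR with all cultures and 0.34 without those cultures, and that of the a-specific list was -0.24 and -0.77.

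Several phosphate starvation genes were higher in OE in YAD, most of them at low levels. Of 17 measured genes 8 were higher past 1.4-fold and none lower, with a median of 0.34, beside 1.57% of all features and the median of -0.12. Features within 20 kb of a chromosome end were higher more often, at 10.3%, and the list was not split by that distance. At a mean of 10 FPKM or more 3 of 12 were higher (PHO84, PHO5 and PHM7), with a median of 0.17, since the other 5 lay below that level.
PHO84, the high-affinity phosphate transporter gene (chrXIII:24037-25800), was at 27.4 FPKM in EV and 80.4 FPKM in OE (1.52), and the wildtype cultures spanned 0.14 between 22.1 and 24.5 FPKM. SPL2, which encodes an inhibitor of low-affinity phosphate uptake, was at 3.22 and 9.49 FPKM (1.31). PHO89, a sodium-coupled phosphate transporter gene, was at 1.23 and 2.65 FPKM (0.71).
Secreted acid phosphatase genes were higher at low levels, with PHO5 at 10.9 and 17.5 FPKM (0.63), PHO12 at 0.81 and 2.71 FPKM (1.03) and PHO11 at 0.40 and 1.60 FPKM (0.89). The last pair is near-identical in sequence, so their split is uncertain and they are not separate evidence among the 8. Both were under 1 FPKM in EV and met the minimum mean of 1 FPKM only through the OE group. With no minimum the count was also 8 of 17. GIT1, a glycerophosphoinositol transporter gene, differed by 0.61, and PHM7, which lies next to ADH1, by 0.50. Genes of vacuolar polyphosphate synthesis did not pass the fold, with VTC3 at 0.34, VTC1 at 0.30, VTC4 at 0.13 and VTC2 at -0.21. The regulator PHO81 was at 0.21 and the vacuolar phosphatase gene PHO8 at -0.11. Of the 15 list members with CACGTG upstream, differences ran from -0.21 for VTC2 to 1.52 for PHO84.

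In YAR, where cultures can be seen one by one, PHO84 was at 35.1, 55.5 and 20.3 FPKM in EV and at 132, 186 and 233 FPKM in OE. Every OE culture was above every EV culture. The YAR difference was 2.22 ± 0.36 (SE, n = 3 and 3), with an adjusted p of 0.23 by limma, and 1.71 without culture 3 of either group. PHO89 was at 43.9, 146 and 8.47 FPKM in EV and at 441, 454 and 508 FPKM in OE, levels far above those in YAD, with a difference of 3.43 ± 0.85 (SE, adjusted p = 0.29 by limma). Of 15 phosphate genes in that fit, 6 had all OE cultures above all EV cultures (PHO84, PHO89, SPL2, VTC3, VTC4 and PHM7), beside 16.6% of all YAR features, and none had them all below. PHO5 was at 10.0, 9.07 and 11.9 FPKM in EV and at 12.1, 8.08 and 12.5 FPKM in OE, so it overlapped in YAR.

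**Figure D3:**
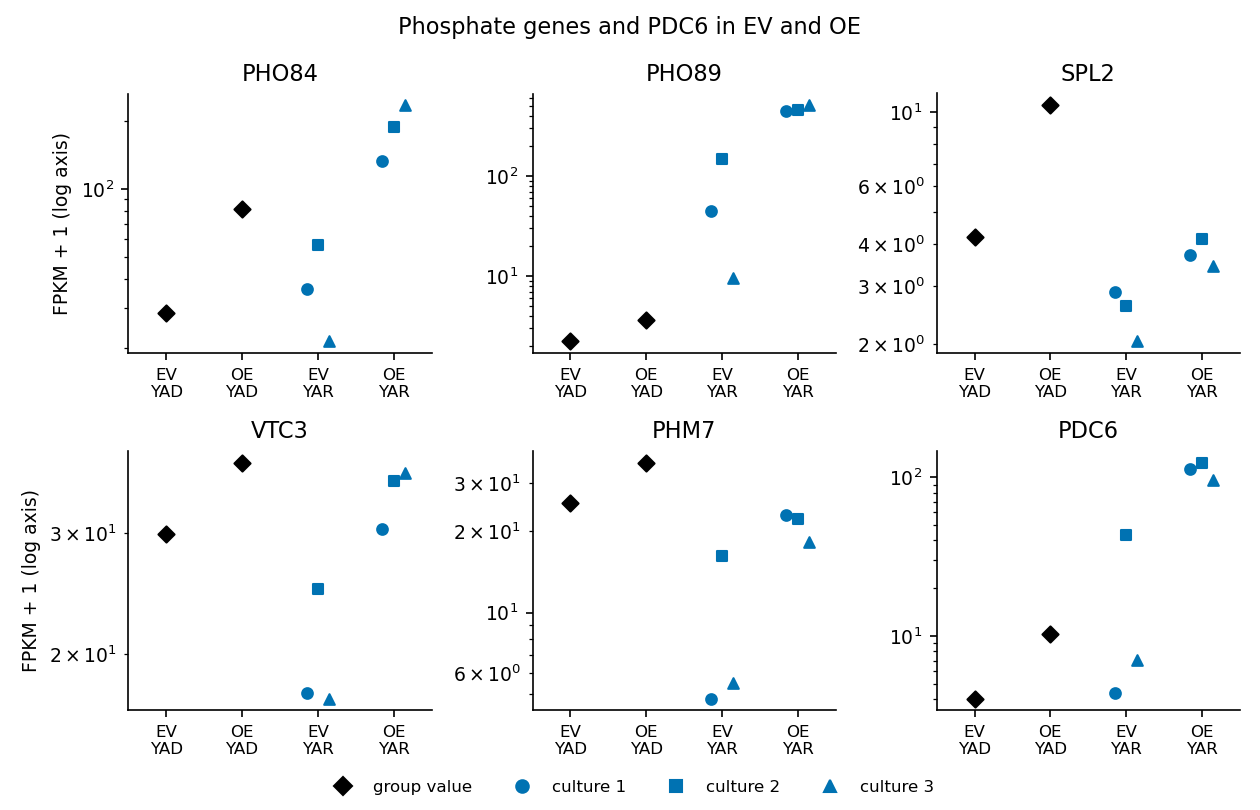
FPKM + 1 (log axis, with its own range in each panel) of PDC6 and of 5 phosphate genes, picked from the 6 that separated the YAR cultures. Black diamonds are the YAD group values and blue symbols the YAR cultures 1, 2 and 3. The OE value lies above the EV value in YAD for all 6 genes, and in YAR each OE culture lies above each EV culture.

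Carbohydrate genes gave a mixed picture in YAD. Of 20 glycolysis and fermentation genes 4 were higher past 1.4-fold, beside 1.57% of all features, and none lower, with a median of 0.09. They were the minor isoforms PDC6, a pyruvate decarboxylase gene, at 3.03 FPKM in EV and 9.33 FPKM in OE (1.36), HXK1, the hexokinase gene induced off glucose, at 64.2 and 116 FPKM (0.85), TDH1, a glyceraldehyde-phosphate dehydrogenase gene, at 954 and 1466 FPKM (0.62), and ENO1, an enolase gene, at 5353 and 7733 FPKM (0.53). The wildtype cultures of TDH1, HXK1, ENO1 and PDC6 spanned 0.53, 0.56, 0.38 and 0.44. ENO2, the main enolase gene, was at 0.07, and PDC1, the main pyruvate decarboxylase gene, at -0.19.
Only PDC6 among the 4 also separated the YAR cultures, at 3.37, 42.5 and 6.10 FPKM in EV and 111, 122.7 and 95.7 FPKM in OE. TDH1 was at 211, 766 and 5605 FPKM in EV and at 568, 519 and 505 FPKM in OE, with EV culture 3 above the other 5. In hexose transport 3 of 13 genes were lower past the fold, beside 4.95% of all features, while the list median of 0.02 lay above that of all features. After centring none of the 13 was lower and 1 was higher, and with equal sums 2 were lower. The 3 genes were the low-affinity transporter gene HXT1 at 353 and 251 FPKM (-0.49), HXT8 at 2.81 and 1.58 FPKM (-0.56) and the glycerol symporter gene STL1 at 5.39 and 3.23 FPKM (-0.60).

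Stress and hydrophilin genes had a median of 0.24, with 6 of 33 higher past 1.4-fold, beside 1.57% of all features, and none lower. The trehalose synthesis genes TPS2 and TSL1 were at 0.56 and 0.53, the glycogen synthase gene GSY1 at 0.56, the hydrophilin gene SIP18 at 0.56, SOL4 at 0.52 and DDR2 at 0.49. With the EV level of the table comparing media only 3 of 33 were past the fold. The wildtype cultures spanned 1.96 for SIP18, 1.44 for DDR2 and 0.56 for GSY1, at least as much as the difference of each. They spanned 0.13 for TPS2 and 0.46 for TSL1, less than their differences. HSP12, a small heat shock protein gene, was at 328 and 416 FPKM (0.34), and MRH1 was lowest at -0.48.

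Nuclear electron transport chain genes were past the fold in YAD at shares near those of all features. Of these 27 genes 1 was higher and 1 lower past 1.4-fold (3.70% each), beside 1.57% and 4.95% of all features. Their median of -0.08 lay close to that of all features. CYC7, the hypoxic cytochrome c isoform gene, was at 2.73 and 5.53 FPKM (0.81), and NDE1, an external NADH dehydrogenase gene, at 47.1 and 30.4 FPKM (-0.62). CYC1, the main isoform, was at -0.33. COX26, a cytochrome c oxidase subunit gene outside that list, was among the 12 largest increases, at 20.2 and 43.4 FPKM (1.07). Its wildtype cultures spanned 0.95, and its YAR cultures overlapped at 63.0, 95.7 and 640 FPKM in EV and 138, 142 and 146 FPKM in OE. None of 17 ATP synthase genes, 12 TCA cycle genes or 7 protein genes of the mitochondrial genome was past the fold, with medians of -0.02, -0.02 and 0.16. Over all features 93.5% stayed within it, so for lists this small the counts lie near that share. ATP8, the remaining protein gene of the mitochondrial list, differed by -2.62 but was left out because its deposited status was not OK. In YAR the median of the same 27 genes was -0.86, and in 19 of them all OE cultures were below all EV cultures, beside 7.2% of all features. No limma test of a single one of them in YAR passed the threshold, and the difference between media could not be tested. Lower YAR values were not particular to this list. The YAR medians were -0.90 for 12 TCA cycle genes, -0.87 for 20 glycolysis and fermentation genes and -0.88 for 11 histone genes. All OE cultures were below all EV cultures in 8, 12 and 8 of these.
Genes for the machinery of the mark also stayed within 1.4-fold, as did 93.5% of all features, so this does not set them apart. None of 16 COMPASS and associated genes was past it. SET1 was at 17.8 and 17.2 FPKM (-0.04), SPP1 at -0.14 and the widest, LEO1 of the Paf1 complex, at -0.36. The other JmjC genes ECM5, GIS1, RPH1 and JHD1 were at 0.07, 0.22, 0.01 and -0.14. All 11 histone genes were within the fold, beside the same 93.5% of all features, with a median of -0.20 and HTA2 lowest at -0.43.

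**Figure D4:**
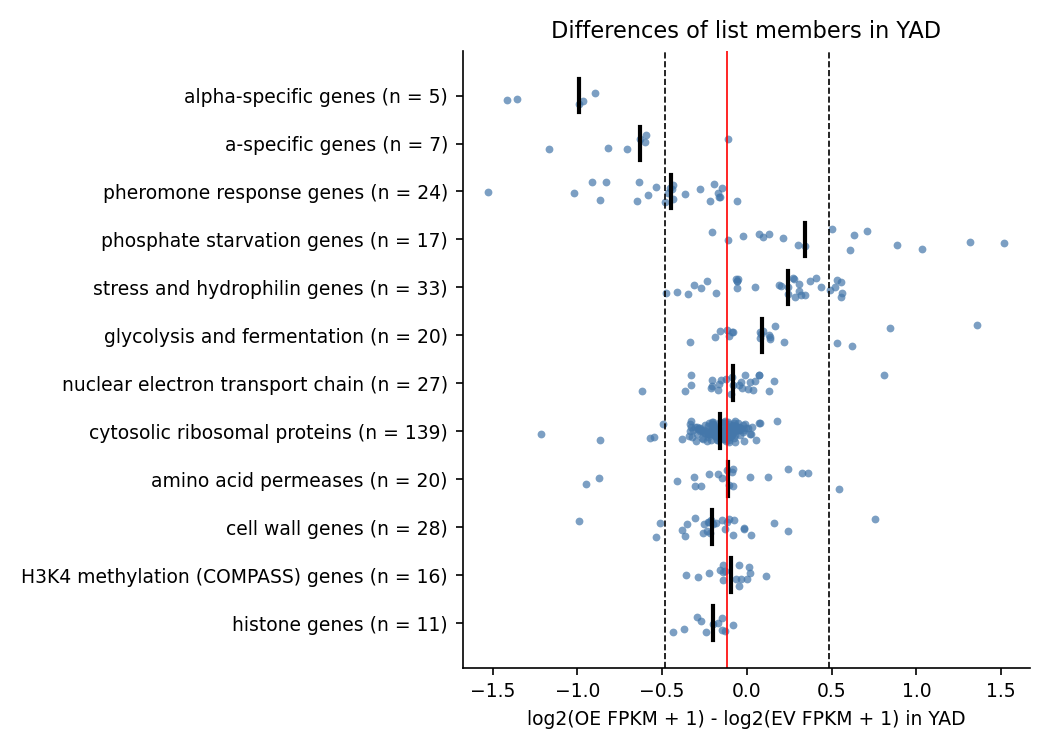
Each point is a list member: x, the OE minus EV difference of log2(FPKM + 1) in YAD, rows, 12 gene lists with the number of measured members. Black bars are list medians, dashed lines 1.4-fold and the red line the median of all features at -0.12. Mating-type lists lie to the left and the phosphate list to the right, while ribosomal, COMPASS and respiratory genes centre near the red line.

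Growth-related lists stayed near the median of all features. Of 139 cytosolic ribosomal protein genes 5 were lower past 1.4-fold, 3.60% beside 4.95% of all features, with a median of -0.16. RPL39, at 73.0 and 30.9 FPKM (-1.21), was the widest, and RPL43A, RPL36B and RPL22A stood under 10 FPKM in both groups. Of 76 mitochondrial ribosomal protein genes 1 was lower (MRPL8, -0.51), and of 35 ribosome biogenesis genes 1 (FAL1, -0.52), beside the same 4.95%. No gene for sulfate assimilation (28), arginine synthesis (19), ergosterol synthesis (24), heat shock chaperones (18) or oxidative stress defence (22) was past the fold. Over all features 93.5% were within it.
Among nutrient genes, 1 of 20 amino acid permease genes was higher and 2 were lower past the fold. Over all features the shares were 1.57% and 4.95%. TAT2, a tryptophan permease gene, was at 7.82 FPKM in EV and 3.57 FPKM in OE (-0.95), and GNP1, a glutamine permease gene, at 8.01 and 3.92 FPKM (-0.87), while DIP5, a dicarboxylic amino acid permease gene, was at 87.6 and 128 FPKM (0.54). The wildtype cultures spanned 0.36 for TAT2, 0.51 for DIP5 and 0.88 for GNP1, as much as its difference. In YAR the values of GNP1 and TAT2 went the other way. GNP1 was at 5.50, 34.6 and 7.29 FPKM in EV and at 53.3, 81.3 and 102 FPKM in OE, and TAT2 was at 24.2, 50.04 and 17.8 FPKM in EV and at 57.8, 59.2 and 69.4 FPKM in OE. All OE cultures were above all EV cultures for both, with YAR differences of 2.51 ± 0.62 and 0.99 ± 0.33 (SE, n = 3 and 3) and adjusted p values of 0.28 and 0.31 by limma. The difference between media was not tested.
Of 28 nitrogen-regulated genes 2 were higher past the fold and none lower, with a median of -0.05. Over all features 1.57% were higher and the median was -0.12. The 2 genes were DAL4, the allantoin permease gene, at 10.3 and 19.8 FPKM (0.88), and PRB1, a vacuolar protease gene, at 111 and 168 FPKM (0.59). DAL4 also separated the YAR cultures, at 8.44, 7.88 and 5.73 FPKM in EV and 40.4, 99.1 and 74.6 FPKM in OE, a difference of 2.92 ± 0.34 (SE, adjusted p = 0.14 by limma). CTR1, the copper transporter gene, was at 14.8 and 8.52 FPKM (-0.73) and overlapped in YAR.
Of 28 cell wall genes 1 was higher and 3 lower past the fold, beside 1.57% and 4.95% of all features, and only 1 was lower after centring or with equal sums. CWP1, a cell wall mannoprotein gene, was at 322 and 162 FPKM (-0.99), the chitinase gene CTS1 at 1621 and 1116 FPKM (-0.54) and the daughter cell gene DSE2 at 753 and 527 FPKM (-0.51). PIR3, another wall protein gene, was at 8.09 and 14.4 FPKM (0.76) and separated the YAR cultures in the same direction.

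Set beside the YAD comparison, the YAR comparison of the same plasmids called 1 of 6331 features by limma at an adjusted p under 0.05 and past 1.4-fold, JHD2 (0.0158%), although 904 features had an unadjusted p under 0.05. Without EV culture 2 the count was 216, and without any other single culture it was 2 to 6. Of the 98 features higher in YAD, 93 were in the YAR fit, and 41 of them were also higher there past 1.4-fold and 14 lower, beside 11.3% and 10.8% of all YAR features. Of the 308 lower in YAD, 302 were in the fit, and 55 were lower there and 42 higher. Features lower with OE in YAD had a median YAR difference of -0.04, and those higher in YAD had one of 0.36. All OE cultures lay above all EV cultures for 26 of the 93, beside 16.6% of YAR features, and below them for 42 of the 302, beside 7.2%. These shares are a description and carry no test.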

How the data were processed

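Strand-specific, rRNA-depleted RNA was sequenced by the authors with 51-base single-end reads. Per the submitters' processing notes, FastQC 0.10.1, TopHat2 2.0.12, Bowtie2 2.1.0, Cufflinks 2.1.1 and Cuffdiff 2.1.1 were used, and the authors deposited FPKM values per group and, in other sheets, per culture. No source used here gives the strand setting of the counting, so reads of a gene and an overlapping antisense feature may not be separable. The authors' own fold changes, p-values and q-values were deposited too and were not used. A further 6 replicate columns, identical to those of YAR, were not used. Their means correlated at 0.989 (EV) and 0.990 (OE) with the YAR group values and at 0.933 and 0.891 with those of YAD. The number of reads is unknown.

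Differences were log2(FPKM + 1) of OE minus EV as deposited, over features of status OK with a mean of at least 1 FPKM, and fold changes on this scale understate the change of low features. YAR cultures were fitted with limma 3.58.1 in R 4.3.3 (trend and robust options, two-sided, Benjamini-Hochberg adjusted) after median-of-ratios scaling, checked on simulated data. P-values measure the spread between these cultures only. Named were JHD2, the 12 largest differences in each direction at 10 FPKM or more, up to 4 members past 1.4-fold per list, the COMPASS and JmjC lists, and features within 3 kb of JHD2, LEU2 and ADH1. Of 45 gene lists, 44 had measured members. The members and lists were chosen with earlier results of these data known. Coordinates are the files' own, written from base 1, and equal RefSeq R64 for 5385 of 6045 matched features. Of 7041 IDs, 1696 had no other symbol. Levels from separate tables were normalised separately.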

Additional observations from a re-analysis of the deposited data

How the results depend on the processing

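Group values without replicates limit every YAD difference, and depth is unknown. In YAD the 98 higher and 308 lower features became 48 and 185 at a mean of 10 FPKM or more, 150 and 164 after centring on the median, and 23 and 36 at a fold of 2. The other planned settings left both counts within 1.5 times. Chosen after seeing the data, a span of at least 300 bases left 68 and 267, RefSeq entries alone 80 and 217, and omission of the mating-type and pheromone lists 288 lower. The median of -0.12 became 0 by construction after centring and -0.0388 with equal sums. JHD2 stayed between 8.11 and 8.22. Of 76 named features past the fold, 60 stayed past it after centring, 67 with equal sums, 70 with the EV level of the table comparing media and all 58 with a value at 10 FPKM or more, and none changed sign. In YAR, leaving out 1 culture at a time gave 2 to 216 called features against 1, and omission of both cultures 3 gave 5. The replicate block also gave 1. Same-numbered YAR cultures correlated at 0.16, -0.04 and 0.12 in their deviations from the group means, and differently numbered ones at -0.19 to 0.11. Deviations within a group constrain each other, so these values cannot decide whether the numbers mark pairs. The main fit did not take them as pairs. The causes were not tested.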

Other observations

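Genes outside the lists were chosen here after their values were seen. Of 6 BNA genes of NAD synthesis picked in this way, 3 were lower past 1.4-fold in OE in YAD and 1 was higher. Over all features 4.95% were lower and 1.57% higher, but genes picked by their values cannot be set against those shares. BNA7 was at 13.98 FPKM in EV and 7.53 FPKM in OE (-0.81), BNA5 at 42.7 and 25.8 FPKM (-0.71), BNA6 at 92.4 and 56.6 FPKM (-0.70). BNA1, at 149 and 115 FPKM (-0.38), did not pass the fold. BNA2, the first enzyme of the route, was instead at 3.49 and 5.86 FPKM (0.61), and BNA4 was at 0.24. In YAR the 3 OE cultures were all below the 3 EV cultures for BNA5, at 17.1, 14.2 and 14.5 FPKM against 24.8, 23.8 and 27.1 FPKM, and for BNA6, at 47.0, 42.4 and 37.8 FPKM against 99.6, 71.7 and 133 FPKM. BNA7 overlapped in YAR, at 14.8, 22.2 and 17.4 FPKM in OE and 18.9, 17.7 and 18.3 FPKM in EV.

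The list of sporulation and meiosis genes had none of 21 members higher and 1 lower past the fold in YAD. Over all features the shares were 1.57% and 4.95%. The lower member was SMK1, at 17.0 and 10.1 FPKM (-0.70), and the list median was -0.09. Outside that list, 3 meiotic recombination genes picked for their increase stood at low levels. SAE3 was at 0.66 FPKM in EV and 5.37 FPKM in OE in YAD (1.94), MND1 at 3.00 and 5.69 FPKM (0.74) and GMC2 at 0.47 and 2.19 FPKM (1.12). SAE3 and GMC2 were under 1 FPKM in EV and met the minimum mean only through the OE group. Each of the 3 genes also had all YAR OE cultures above all EV cultures, with SAE3 at 22.3, 24.5 and 11.7 FPKM against 6.35, 8.52 and 2.98 FPKM. DMC1, a recombinase gene on the list, was at 4.26 and 4.14 FPKM in YAD (-0.03), and in YAR all of its OE cultures were below all EV cultures.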
